A study of Mus musculus with 4 samples.

Results

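Genes of the erythroid lineage were followed in mouse long-term haematopoietic stem cells, which maintain all blood lineages over a lifetime. The set held 9 of the 23185 named genes measured: the transcription factor genes Gata1, Klf1 and Gfi1b, the receptor genes Epor and Tfrc, the haem synthesis gene Alas2, the carbonic anhydrase genes Car1 and Car2 and the blood group gene Ermap. They were chosen by symbol as erythroid regulators and red cell genes, with earlier results of these data known. Each was read by 1 probe set. Marrow cells sorted as Lin- ckit+ Sca+ received γ-irradiation at 0, 0.02, 0.1 or 0.5 Gy and were then transplanted into lethally irradiated mice. At 6 months, cells of the same Lin- ckit+ Sca+ phenotype that were also CD150+ but CD48- and Flk2- were sorted as long-term stem cells, in the irradiated groups and in the 0 Gy control. The 4 doses had 1 array each, so there are 0 replicates within a dose and no test of a single dose is possible. The sources used here do not give strain, sex, age, the number of mice behind each array or the antibodies of the lineage gate. The gate as written names no donor marker, so cells that survived in the irradiated hosts cannot be told apart from donor cells. Every difference below is a difference between 2 arrays.

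Red cells arise from stem cells through megakaryocyte-erythroid and then committed erythroid progenitors. GATA1 and its partners switch on the erythroid programme, KLF1 acts beside it on globin, membrane and haem genes, and GFI1B represses genes of other fates. Committed progenitors survive by erythropoietin signalling through the receptor encoded by Epor. Maturing erythroblasts take up iron through the transferrin receptor, make haem starting from the enzyme encoded by Alas2, and fill with haemoglobin and carbonic anhydrase. Some of these factors, GFI1B among them, are also made in stem cells and megakaryocytes.

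The 9 genes did not share one pattern over dose. At 0.1 and 0.5 Gy, Klf1, Car1, Ermap and Tfrc were at least 1.5-fold higher than at 0 Gy, and Gata1 joined them at 0.5 Gy. At 0.02 Gy, Klf1, Gata1 and Car1 lay below the 0 Gy array. Gfi1b, Car2, Epor and Alas2 stayed within 1.5-fold of it at each dose. The values are deposited log2 intensities, so a difference of 1 is a doubling, and the level of 1.5-fold is a log2 difference of 0.58.

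The windows around the start sites of 5 of these genes are shown first, because GATA1 and KLF1 bind DNA themselves and several of the genes that were higher are known targets of them in red cell precursors. Each runs from 250 bases before to 50 bases after the RefSeq start site in GRCm38.p6, 5′ to 3′ on the strand of the gene. The Gata1 window lies inside the annotated span of the gene, and its more distant start was not searched. Capitals mark matches on either strand to a GATA word (AGATAA or AGATAG, or either with T in place of its first A) or to the CACCC-type word CCNCNCCC. Matches of the latter may overlap each other. The windows lie at chrX:7967861-7968160 for Gata1 (minus strand), chr8:84901732-84902031 for Klf1 (plus strand), chr4:119189946-119190245 for Ermap (minus strand), chr9:21963527-21963826 for Epor (minus strand) and chrX:150547167-150547466 for Alas2 (plus strand).
Gata1: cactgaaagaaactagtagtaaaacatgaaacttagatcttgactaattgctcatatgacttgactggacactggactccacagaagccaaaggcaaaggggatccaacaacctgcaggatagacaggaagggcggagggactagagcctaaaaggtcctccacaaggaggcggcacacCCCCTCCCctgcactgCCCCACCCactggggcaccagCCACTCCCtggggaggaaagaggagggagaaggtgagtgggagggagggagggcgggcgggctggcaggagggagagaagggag
Klf1: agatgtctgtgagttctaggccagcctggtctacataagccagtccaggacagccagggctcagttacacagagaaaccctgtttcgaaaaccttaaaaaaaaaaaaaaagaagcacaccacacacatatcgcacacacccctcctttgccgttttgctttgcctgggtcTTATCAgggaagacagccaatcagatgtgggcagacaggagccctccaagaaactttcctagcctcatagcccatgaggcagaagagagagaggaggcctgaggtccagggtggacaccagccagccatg
Ermap: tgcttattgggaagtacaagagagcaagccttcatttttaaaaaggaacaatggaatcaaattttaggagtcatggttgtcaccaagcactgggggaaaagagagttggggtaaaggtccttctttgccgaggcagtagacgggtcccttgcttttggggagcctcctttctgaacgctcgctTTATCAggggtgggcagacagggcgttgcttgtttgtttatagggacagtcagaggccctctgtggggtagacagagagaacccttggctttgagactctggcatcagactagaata
Epor: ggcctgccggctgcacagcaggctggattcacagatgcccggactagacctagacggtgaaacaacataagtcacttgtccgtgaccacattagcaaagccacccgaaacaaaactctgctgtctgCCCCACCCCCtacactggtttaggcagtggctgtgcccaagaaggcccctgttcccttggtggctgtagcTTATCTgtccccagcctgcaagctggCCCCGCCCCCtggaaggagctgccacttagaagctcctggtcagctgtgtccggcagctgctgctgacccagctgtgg
Alas2: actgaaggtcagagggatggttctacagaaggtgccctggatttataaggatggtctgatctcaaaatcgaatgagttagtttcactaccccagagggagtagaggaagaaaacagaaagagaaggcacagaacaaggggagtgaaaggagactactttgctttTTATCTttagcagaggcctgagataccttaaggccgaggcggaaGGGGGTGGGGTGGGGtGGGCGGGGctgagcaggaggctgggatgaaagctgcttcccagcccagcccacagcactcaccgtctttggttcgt

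The RefSeq table held windows for 7 of the 9 genes, with 2 for Tfrc, and none was printed for Car1 and Car2. A GATA word was found in 5 of the 7 genes and the CACCC-type word in 5 of 7. Among all 32851 promoter windows of the same length, 29.8% held a GATA word and 49.5% the CACCC-type word. Klf1 and Ermap, both higher at 0.1 and 0.5 Gy, each had a single GATA word, TTATCA as read on the strand of the gene, with its first base at position -80 and -67 from the start site. The words did not divide the genes by their values. Alas2 and Epor, which stayed within 1.5-fold, each held a GATA word, at -86 and -54, and 4 matches to the CACCC-type word. Gata1 had 0 GATA words in its window and 3 CACCC-type matches, and its value was higher at 0.5 Gy. A match is a description of letters and not a bound site, and no binding was measured here.

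Gata1 (Entrez gene 14460), the master regulator of red cell and platelet development, lies on chromosome X from 7959260 to 7976663 in GRCm38. Its log2 intensity was 7.72, 7.33, 8.10 and 8.84 on the arrays of 0, 0.02, 0.1 and 0.5 Gy. The 0.5 Gy array was the highest and the 0.02 Gy array the lowest. Relative to 0 Gy the differences were -0.39, 0.38 and 1.12 in order of dose, the last a 2.17-fold higher intensity. The same gene was 1.67-fold higher at 0.5 Gy than at 0.1 Gy, which made it the sole member at 1.5-fold or more between those arrays.

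Klf1 (16596), the erythroid Krüppel-like factor, lies on chromosome 8 from 84901982 to 84905291. It had 5.46, 4.90, 6.84 and 6.64 on the arrays of 0, 0.02, 0.1 and 0.5 Gy. Here the arrays at 0.1 and 0.5 Gy stood together above the other pair. Klf1 was 2.61-fold higher at 0.1 Gy and 2.28-fold higher at 0.5 Gy than at 0 Gy. At 0.02 Gy its difference of -0.55 lay just short of the 1.5-fold level, and it crossed that level after quantile normalization (-0.61) and median centring (-0.60). Against the 0.02 Gy array, Klf1 was 3.84-fold higher at 0.1 Gy and 3.34-fold higher at 0.5 Gy.

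Gfi1b (14582), a repressor needed for both red cells and platelets, lies on chromosome 2 from 28609450 to 28621982. It had 9.66, 9.38, 9.59 and 10.07 on the arrays of 0, 0.02, 0.1 and 0.5 Gy. These 4 values spanned 0.68, a narrower range than the 1.51 of Gata1 and the 1.94 of Klf1. Its order over the arrays resembled that of Gata1 in that 0.02 Gy was lowest and 0.5 Gy highest, yet its difference from 0 Gy reached only 0.40 at 0.5 Gy. The 0.5 Gy array was 1.61-fold above the 0.02 Gy array.

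**Figure D1:**
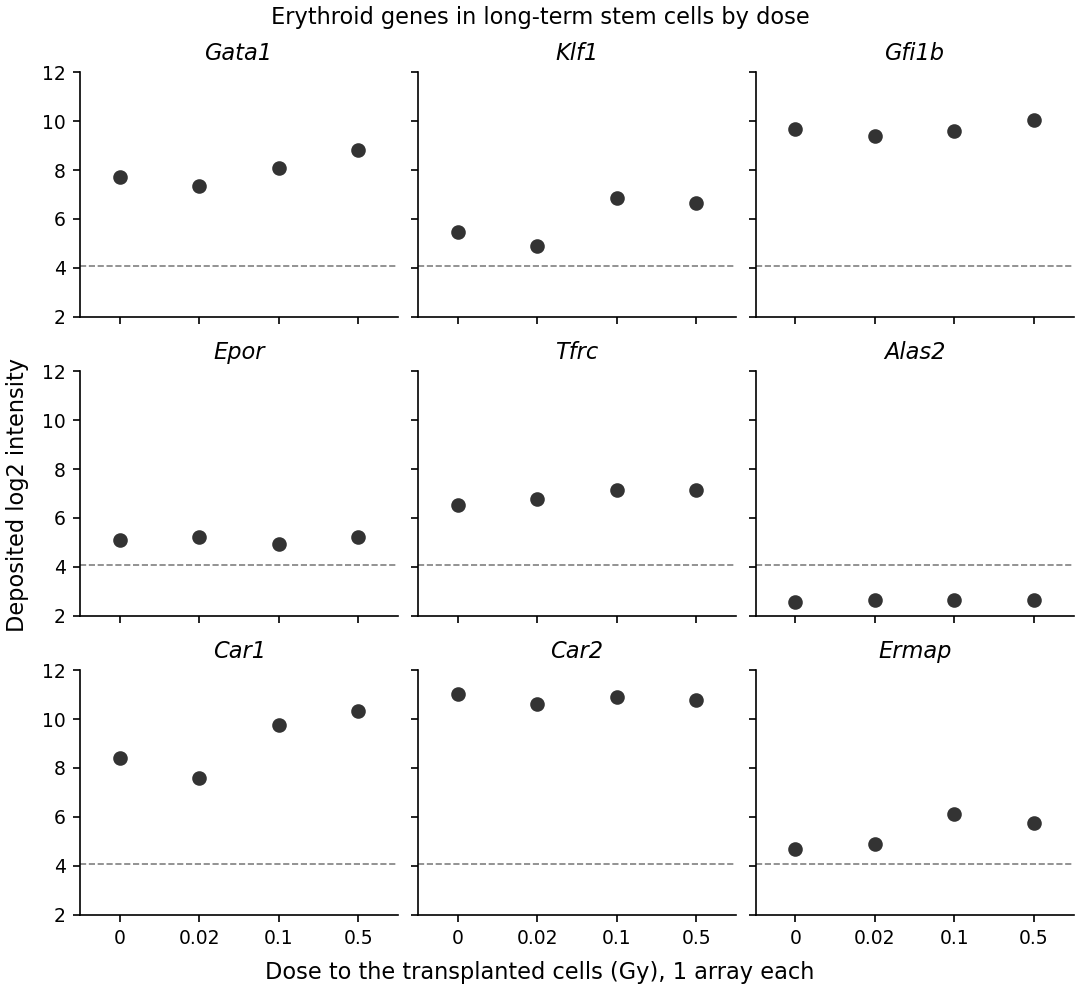
Deposited log2 intensity (vertical axis) of the 9 erythroid genes on the array of each dose in Gy (horizontal axis, equally spaced doses); each point is 1 array and the dashed line is the filter level of 4.06. Klf1, Car1 and Ermap are higher at 0.1 and 0.5 Gy than on the other arrays, Car2 and Epor are nearly level, and Alas2 lies below the line at each dose.

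The receptors and the haem enzyme came next in the pathway. Epor (13857), on chromosome 9 from 21958897 to 21963576, encodes the erythropoietin receptor and had 5.08, 5.22, 4.94 and 5.22 at 0, 0.02, 0.1 and 0.5 Gy. Its values spanned 0.28 in all, and the largest difference from 0 Gy was 0.15, at 0.02 Gy. Epor thus lay at nearly the same level on arrays where Gata1, whose product activates it in erythroid cells, was more than 2-fold apart.

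Tfrc (22042), on chromosome 16 from 32608896 to 32632794, encodes the transferrin receptor, which dividing cells of many kinds use for iron uptake. It had 6.51 at 0 Gy, 6.79 at 0.02 Gy and the same value, 7.16, at 0.1 and 0.5 Gy. All 3 irradiated arrays were above the 0 Gy array, and at 0.1 and 0.5 Gy Tfrc was 1.56-fold higher, just beyond the level used for counting. Exact ties such as this are common in the deposited table: 46.3% of the genes kept by the filter had at least 1 tie among the 4 arrays.

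Alas2 (11656), on chromosome X from 150547417 to 150570622, encodes the red cell form of the first enzyme of haem synthesis, which accumulates in maturing erythroblasts. It had 2.57 at 0 Gy and 2.62 on each of the 3 irradiated arrays, all below the filter level of 4.06. It was the sole member that did not pass the filter, and with 3 tied values its small difference of 0.05 carries no order of dose.

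The carbonic anhydrases gave the widest contrast within the set. Car1 (12346), which encodes the cytosolic carbonic anhydrase 1 abundant in red cells, lies on chromosome 3 from 14766214 to 14808365. Its log2 intensity was 8.42, 7.59, 9.77 and 10.34 on the arrays of 0, 0.02, 0.1 and 0.5 Gy, a range of 2.76 that was the widest of the 9 genes. Car1 was 2.55-fold higher at 0.1 Gy and 3.79-fold higher at 0.5 Gy than at 0 Gy, and at 0.02 Gy its difference was -0.83, equal to 1.78-fold lower. Between the irradiated arrays, the 0.5 Gy value was 6.75-fold above the 0.02 Gy value, and only 3 of the 11593 genes kept by the filter had a larger positive difference between those arrays.

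Car2 (12349), a nearby family member on chromosome 3 from 14886269 to 14900770, encodes the widely expressed carbonic anhydrase 2. It had 11.03, 10.63, 10.89 and 10.80 at 0, 0.02, 0.1 and 0.5 Gy. All 3 irradiated arrays were below the 0 Gy array, with differences between -0.39 and -0.14. Further family genes lie in the same stretch of chromosome 3. Car13, from 14641727 to 14663002, had 6.61 at 0 Gy and 6.55 on each irradiated array, and Car3, from 14863538 to 14872381, had 4.26, 4.17, 4.29 and 4.26. Of the 4 carbonic anhydrase genes of this stretch, Car1 alone was 1.5-fold or more from 0 Gy at any dose. Among all kept genes 6.44%, 5.5% and 5.92% were that far above 0 Gy in order of dose, and 6.2%, 7.48% and 8.25% below.

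Ermap (27028), on chromosome 4 from 119175457 to 119190013, encodes the erythroblast membrane-associated protein that carries the Scianna blood group in humans. It had 4.67, 4.89, 6.13 and 5.74 on the arrays of 0, 0.02, 0.1 and 0.5 Gy. Like Klf1, Ermap was higher at 0.1 and 0.5 Gy than on the other arrays and was highest at 0.1 Gy. Its intensity was 2.76-fold higher at 0.1 Gy and 2.10-fold higher at 0.5 Gy than at 0 Gy, whereas at 0.02 Gy the difference was 0.22, on the opposite side of 0 from Klf1.

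**Figure D2:**
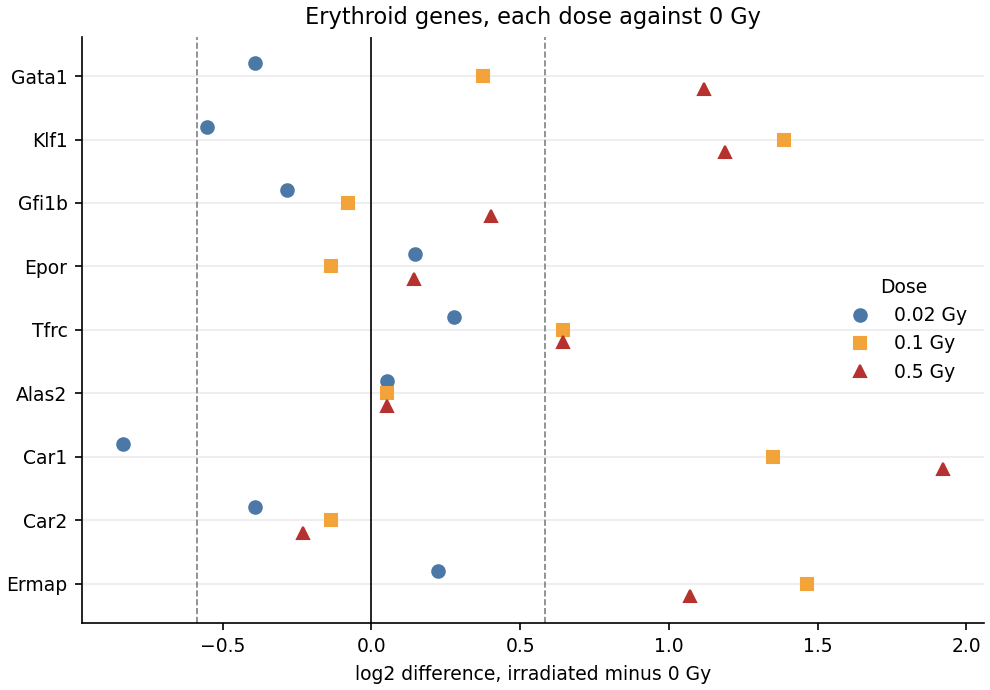
Log2 difference of each irradiated array from the 0 Gy array (horizontal axis) for the 9 erythroid genes (rows); symbols give the dose and dashed lines mark 1.5-fold. For the 0.1 Gy array 4 genes and for the 0.5 Gy array 5 genes lie to the right of the upper line, and at 0.02 Gy Car1 alone lies to the left of the lower line.

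Counted over the set, 0 of 9 genes exceeded 0 Gy by 1.5-fold or more on the 0.02 Gy array and 1 lay that far below it. Of the 11593 genes kept by the filter, 6.44% were that far above and 6.2% below. The 0.1 Gy array had 4 of 9 genes above and 0 below, against 5.5% and 7.48% of kept genes, and the 0.5 Gy array 5 of 9 above and 0 below, against 5.92% and 8.25%. Because the 9 genes were chosen with earlier results of these data known, this contrast is a description and not a test. The median difference of the 9 genes was -0.28, 0.38 and 0.64 in order of dose, and the median of all kept genes was 0.00 at each dose. The 8 members that passed the filter each lay above its level on all 4 arrays, so none was kept through a single bright array. Just inside the 1.5-fold level at 0.1 and 0.5 Gy was Tfrc at 0.64, and the nearest below it were Gata1 at 0.38 for 0.1 Gy and Gfi1b at 0.40 for 0.5 Gy.

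The irradiated arrays also differed among themselves. Relative to 0.02 Gy, the 0.1 Gy array had 4 of 9 genes 1.5-fold or more above and 0 below, against 5.9% and 8.15% of kept genes, and the 0.5 Gy array 5 above and 0 below, against 5.92% and 8.62%. Between 0.5 and 0.1 Gy, 1 gene was higher and 0 lower, against 5.91% and 6.51%, which is close to the share among all kept genes. Klf1, Gata1 and Car1 were below the 0 Gy array at 0.02 Gy and above it at both higher doses, an order held by 4.90% of kept genes. No member was higher at every step of dose. These comparisons share arrays, so their counts are not separate evidence.

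The erythroid transcription factor genes gave differences in a few members. Over 18 transcription factor and cofactor genes, Gata1, Klf1 and Gfi1b included, the median difference was 0.00, 0.02 and 0.11 at 0.02, 0.1 and 0.5 Gy. At those doses 1, 2 and 4 genes exceeded 0 Gy by 1.5-fold or more, against 6.44%, 5.5% and 5.92% of kept genes, and 0 lay that far below it. Beside Klf1 and Gata1, these were Cbfa2t3, a corepressor partner of the GATA1 complex, and Tcf3, which encodes the E proteins that pair with TAL1. Cbfa2t3 had 8.47, 9.07, 8.98 and 9.29 at 0, 0.02, 0.1 and 0.5 Gy, and Tcf3 had 8.45, 8.50, 9.14 and 9.13. Gata2, the stem cell GATA factor that GATA1 replaces during red cell commitment, had 10.33 at 0 Gy and 10.18 on each irradiated array. The higher Gata1 value at 0.5 Gy thus stood beside a Gata2 difference of -0.15. Tal1, Lmo2 and Ldb1, named after their values were seen as the scaffold on which GATA1 binds, differed from 0 Gy by at most 0.33 at any dose.

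Erythropoietin signalling genes had no common direction. Of 15 genes, all kept, 3, 1 and 1 lay 1.5-fold or more above 0 Gy in order of dose. At those doses 1, 2 and 3 lay that far below it. Of all kept genes, 6.44%, 5.5% and 5.92% were above and 6.2%, 7.48% and 8.25% below. The medians of the 15 genes were 0.15, 0.00 and 0.00. Cish, a STAT5-induced feedback inhibitor, had 7.77, 8.57, 7.10 and 7.02 at 0, 0.02, 0.1 and 0.5 Gy. It was thus high on the array where Klf1 and Car1 were low, and low on the arrays where they were high. Bcl2l1, which encodes the survival factor BCL-XL of erythroblasts, was below 0 Gy on each irradiated array, with differences of -0.62, -0.59 and -0.97. Pim1 and Socs3, both also targets of other cytokines, were above 0 Gy at each dose, by 1.07, 0.51 and 0.38 for Pim1 and by 3.03, 0.98 and 2.22 for Socs3.

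Among 12 haem synthesis and mitochondrial haem transport genes the medians were 0.02, 0.11 and 0.05. Of the 10 that passed the filter, 1, 2 and 1 exceeded 0 Gy by 1.5-fold or more in order of dose, and 0 lay that far below it. Among all kept genes 6.44%, 5.5% and 5.92% were above and 6.2%, 7.48% and 8.25% below. A count of 1 in a list of 10 lies near those shares. Slc25a38, the mitochondrial glycine importer that feeds haem synthesis, had 4.10 at 0 Gy and 5.20, 5.26 and 5.50 at 0.02, 0.1 and 0.5 Gy, so it was above 0 Gy on all 3 irradiated arrays. Alad, the enzyme that joins the first precursors into porphobilinogen, had 7.75, 7.53, 8.42 and 8.03 and was highest at 0.1 Gy. The housekeeping counterpart of Alas2, Alas1, had 5.89, 5.95, 5.90 and 5.90. Fech, which inserts iron into the ring at the last step, had 6.12, 6.43, 6.12 and 6.08.

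Iron genes gave scattered single differences, with medians of -0.01, 0.00 and 0.00 over 14 genes, Tfrc included. Of the 12 kept, Tfrc among them, 0, 2 and 1 lay 1.5-fold or more above 0 Gy in order of dose, and 1, 0 and 0 that far below it. Among all kept genes 6.44%, 5.5% and 5.92% were above and 6.2%, 7.48% and 8.25% below, so a count of 1 in 12 lies near those shares. Tfrc was the one gene above at 0.5 Gy and, with Ncoa4, one of the pair above at 0.1 Gy. Ncoa4, the receptor that directs ferritin to breakdown, was 0.99 above 0 Gy at 0.1 Gy and within 0.06 of it on the other irradiated arrays. Steap3, the ferrireductase that works beside the transferrin receptor in erythroblasts, had a difference of -0.93 at 0.02 Gy and equalled 0 Gy at 0.1 and 0.5 Gy.

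Among red cell membrane and blood group genes, a few surface protein genes other than Ermap were higher at 0.5 Gy. Rhd, which encodes the Rhesus blood group protein, had 4.54, 4.71, 5.57 and 6.19 at 0, 0.02, 0.1 and 0.5 Gy. Kel, the Kell blood group metalloprotease, had 3.14, 3.48, 3.59 and 5.08. Both were higher at each step of dose, an order held by 1.94% of kept genes, but Kel did not pass the filter and reached its level at 0.5 Gy alone. Aqp1, the water channel of the red cell membrane, had 6.57, 6.83, 7.08 and 7.55 in the same order of dose and was likewise higher at each step. The 15 genes of this list that passed the filter include Ermap. Of these, 0, 3 and 5 lay 1.5-fold or more above 0 Gy in order of dose, with Ermap counted at 0.1 and 0.5 Gy. In the same order of dose, 1, 0 and 1 lay that far below it. Among all kept genes 6.44%, 5.5% and 5.92% were above and 6.2%, 7.48% and 8.25% below. The medians of the 19 measured genes were 0.00, 0.00 and 0.10, so most of the list did not share these differences. The structural genes of the mature membrane, named after their values were seen, differed among themselves. Slc4a1 (band 3) and Sptb (a spectrin) were within 0.29 of 0 Gy at each dose, Ank1 (ankyrin) was 0.46, 0.46 and 0.65 above it in order of dose, and Epb42 (protein 4.2 of the membrane), which did not pass the filter, had differences of -0.36, 0.00 and 0.36.

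**Figure D3:**
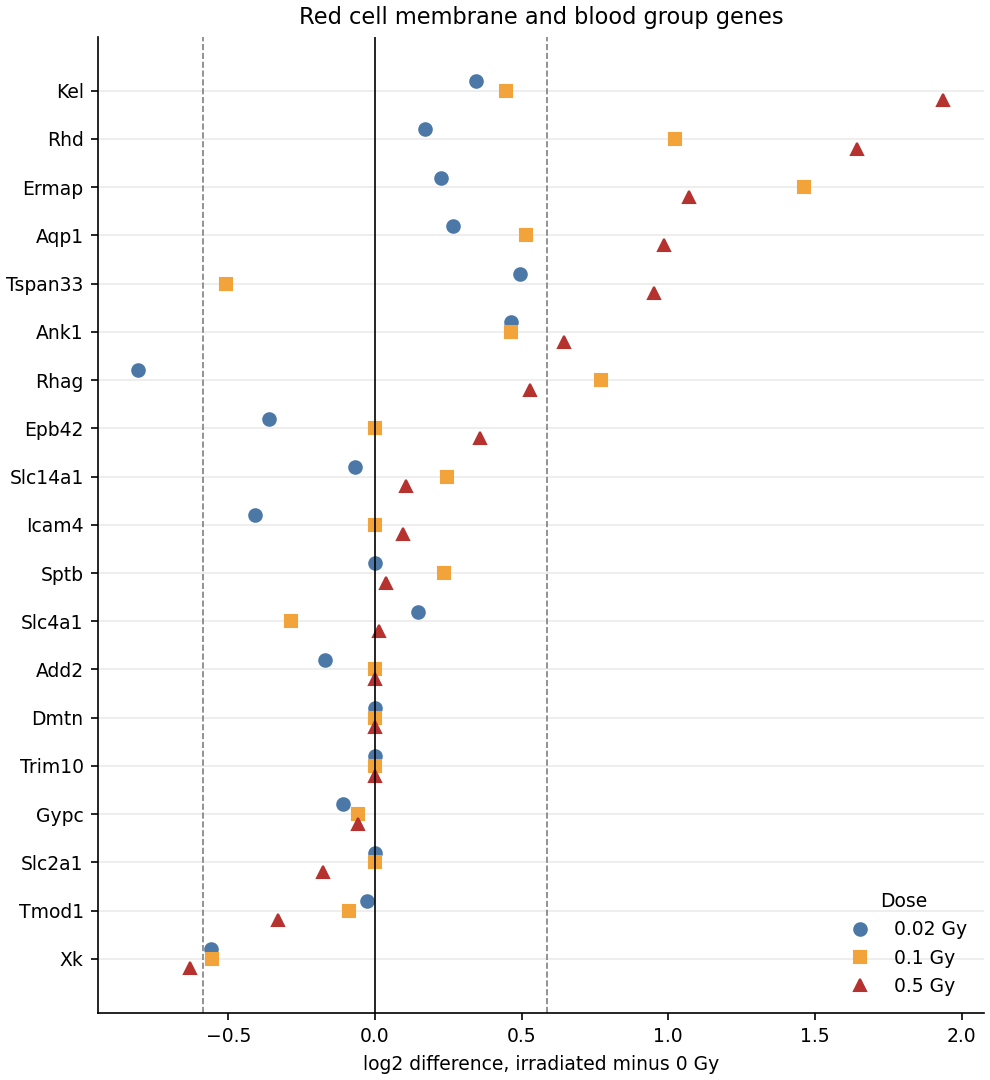
Log2 difference of each irradiated array from 0 Gy (horizontal axis) for the 19 red cell membrane and blood group genes (rows, ordered by the 0.5 Gy difference); dashed lines mark 1.5-fold. Kel, Rhd and Aqp1 are displaced to the right in the order of dose, while most other genes lie near 0.

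Globin genes, the defining products of late erythroblasts, were measured in part. Hbb-b1, an adult beta globin gene, had 8.59, 8.22, 7.51 and 9.25 on the arrays of 0, 0.02, 0.1 and 0.5 Gy. It was lowest at 0.1 Gy, where Klf1 and Ermap had their highest values. Hbb-bs, a near-identical beta globin gene, had 2.12, 2.84, 2.76 and 4.19. How signal was divided between these 2 entries is uncertain, and with the strain not given, which of them the mice carried is not known. The embryonic genes Hba-x, Hbb-y, Hbb-bh1 and Hbb-bh2 lay below the filter level on all 4 arrays. The other 5 globin and chaperone genes of the list, among them both adult alpha globin genes, were not analysed here. Hbb-bs did not pass the filter and exceeded its level at 0.5 Gy alone, so the size of its difference is uncertain. On the 0.5 Gy array Hbb-b1 was 0.65 and Hbb-bs 2.07 above 0 Gy, while Alas2, below the filter level, was 0.05 above it.

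The genes with the most similar pattern were sought by the distance between their 3 differences from 0 Gy and those of Klf1, Gata1 or Car1, among 10908 other kept genes. Nearest to Klf1 was Cd34, a progenitor marker in the mouse, at a distance of 0.47, with differences of -0.88, 1.09 and 1.03 at 0.02, 0.1 and 0.5 Gy. Rnu3a, Mnd1, Mc5r and Zbtb25 followed. Nearest to Gata1 were Nkg7 at 0.18, Gtpbp10, Ankrd23, Snora31 and Zeb2os. For Car1 they were Tmem273 at 0.47, Rnu3a, Klf1 at 0.79, Mnd1 and Cd34. Klf1 was therefore the third closest gene to Car1, and Cd34 was among the 5 closest to both Klf1 and Car1. With 3 differences per gene that share 1 control array, such likeness is a description only.

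Marker genes of other cells differed between the same arrays. The sort genes matched the gate in part. Kit had 10.16, 10.57, 10.40 and 10.12 on the arrays of 0, 0.02, 0.1 and 0.5 Gy. Slamf1, which encodes CD150, had 7.67, 8.65, 7.16 and 7.77, highest at 0.02 Gy. Cd48, which did not pass the filter, had 4.13, 3.08, 4.11 and 4.13, lowest at 0.02 Gy. Flt3, which encodes the excluded Flk2, had 4.46, 4.76, 5.44 and 4.76, above the filter level on all arrays. Of 11 granulocyte markers 7 passed the filter, and 3, 6 and 5 of these lay 1.5-fold or more above 0 Gy in order of dose. At those doses 1, 0 and 0 lay that far below it. Of all kept genes, 6.44%, 5.5% and 5.92% were above and 6.2%, 7.48% and 8.25% below. Some markers, such as Elane and S100a8, were below 4.06 at 0 Gy, at 3.54 and 3.89. They passed the filter through the arrays where they were high. The summed log2 intensity of all 11 markers was 44.8, 49.4, 62.8 and 53.0 in order of dose, while that of the 9 erythroid genes was 61.1, 59.4, 66.0 and 67.4. The granulocyte sum was thus highest at 0.1 Gy and the erythroid sum at 0.5 Gy. Mpo, the myeloperoxidase of early granulocyte progenitors, had 4.78, 6.44, 8.75 and 7.07.

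Megakaryocyte and platelet markers, the branch closest to the erythroid lineage, had more genes 1.5-fold below 0 Gy than above it at the higher doses. Of 13 that passed the filter, 1, 0 and 0 lay 1.5-fold or more above 0 Gy in order of dose. At those doses 1, 5 and 4 lay that far below it. Of all kept genes, 6.44%, 5.5% and 5.92% were above and 6.2%, 7.48% and 8.25% below. Vwf, which encodes von Willebrand factor, had differences of -1.44 at 0.1 Gy and -1.30 at 0.5 Gy, and Selp, which encodes P-selectin, -1.15 and -1.13. The summed log2 intensity of all 14 measured markers was 107.7, 106.8, 100.9 and 102.7. Of 13 long-term stem cell markers, all kept, 4, 0 and 1 were 1.5-fold or more above 0 Gy, beside the same shares of kept genes. At those doses 0, 3 and 0 were that far below. Their sums were 94.8, 99.9, 91.1 and 93.8. The arrays at 0.1 and 0.5 Gy, with high Klf1 and Car1, had higher Cd34 and lower Vwf and Selp than the 0 Gy array. Vwf and Selp were among the largest differences of their list, whose medians were -0.05, -0.46 and -0.16 in order of dose. Some genes of that list lay the other way, such as Gp5, named after its values were seen. Gp5 differed by 0.34 at 0.1 Gy and 0.58 at 0.5 Gy. Cd34 had the largest difference of the 6 progenitor markers, whose medians were -0.19, 0.07 and 0.19. Cd48, another of these, differed by -0.02 at 0.1 Gy and 0.00 at 0.5 Gy. The medians of the 11 granulocyte markers were 0.34, 2.17 and 0.60. At 0.02 Gy not all of these markers lay above 0 Gy, and S100a8 had a difference of -1.08.

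On the 0.02 Gy array, where Klf1, Gata1 and Car1 were lowest, 6 of 9 cell division genes lay 1.5-fold or more below 0 Gy. That far above it lay 0, against 6.2% of all kept genes below and 6.44% above. The median of the 9 cell division genes was -0.63. At 0.1 and 0.5 Gy their medians were -0.03 and -0.12. Of 7 B and plasma cell markers 5 passed the filter, and 4, 1 and 0 of these were 1.5-fold or more above 0 Gy in order of dose. At those doses 0, 2 and 3 were that far below it. Of all kept genes, 6.44%, 5.5% and 5.92% were above and 6.2%, 7.48% and 8.25% below. Cd79a, counted above 0 Gy at 0.02 and 0.1 Gy, had 3.80, 6.61, 4.40 and 3.30 at 0, 0.02, 0.1 and 0.5 Gy. It lay below the filter level at 0 and 0.5 Gy and passed the filter through the arrays where it was high. Of 8 basophil and mast cell markers only Cpa3 passed the filter, with 3.75, 4.17, 4.95 and 4.66. Cpa3 likewise lay below the filter level at 0 Gy. Of 8 macrophage markers 3 passed, with medians of -0.34, -0.72 and -0.16 in order of dose, while over all 8, of which 5 lay below the filter level, the median was within 0.02 of 0. Cd68, a lysosomal protein of macrophages, had 6.10, 7.78, 4.02 and 6.18 on the arrays of 0, 0.02, 0.1 and 0.5 Gy. Of 6 progenitor markers 3 passed, and their median at 0.02 Gy was 0.11, on the other side of 0 from the -0.19 over all 6. Whether these other cells or cell division had a part in the erythroid values was not tested. In bulk RNA, fewer cells of a type and less RNA per cell cannot be told apart.

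**Figure D4:**
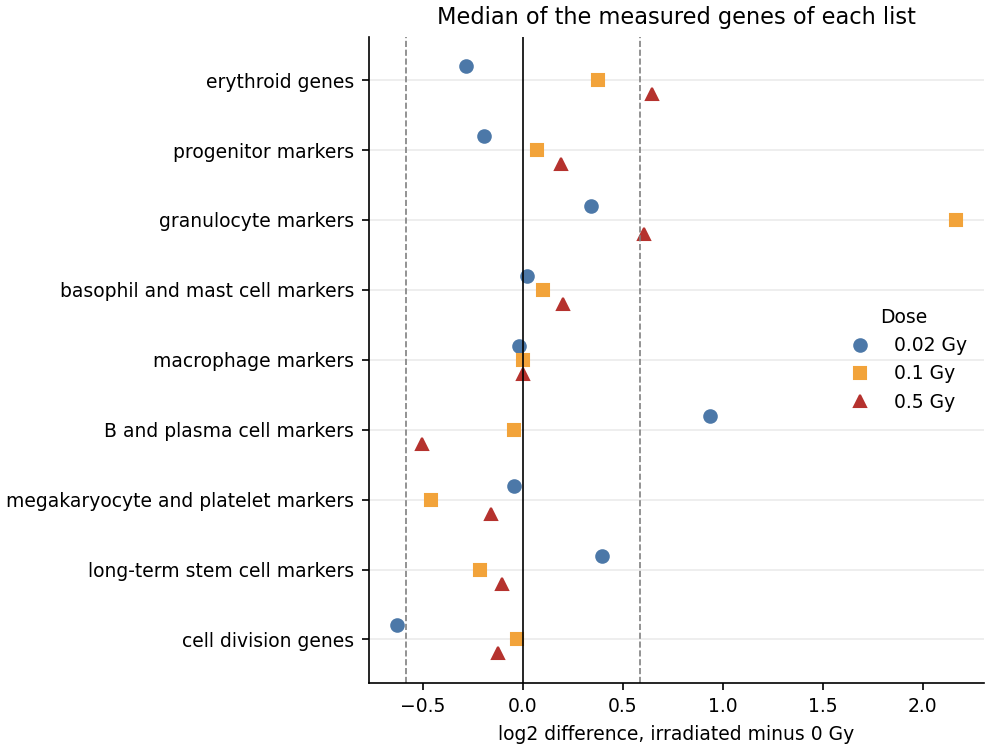
Median log2 difference from 0 Gy (horizontal axis) over all measured genes of each list (rows), with symbols for dose and dashed lines at 1.5-fold; each median compares 2 arrays. The erythroid genes lie left of 0 at 0.02 Gy and right of it at 0.1 and 0.5 Gy. The progenitor markers do so too, by 0.07 at 0.1 Gy, but their 3 kept genes had a median of 0.11 at 0.02 Gy. The long-term stem cell markers and the B and plasma cell markers show the opposite sides, the latter by -0.04 at 0.1 Gy.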

How the data were processed

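Total RNA of sorted stem cells from 4 groups was hybridised after labelling with an Affymetrix whole-transcript kit, per the labels' protocols. The authors deposited log2 intensities, 1 per Entrez gene probe set. The base of 2 was inferred from the range of 1.22 to 13.0. Partek is named in the submitters' processing notes, whereas the sources used here name no background correction or normalization. Array medians were 4.01 to 4.07.

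The platform table named 23185 of 25206 probe sets, its Entrez number equalling the row number in all of them. Probe sets it does not list were left out, a choice made after the values were seen, so some genes of the lists are not reported here. Values were used as deposited. The filter kept 11593 genes whose mean over the arrays reached the median of gene means (4.06). Differences between arrays and counts at 1.5-fold were computed in Python 3.11.15 and tested on simulated data; with 1 array per dose no test was run and the number of arrays limits precision. Members and the 20 gene lists, members included, were chosen with earlier results of these data known. Named are all members, up to 4 genes per other list by largest difference, any globin, haem or carbonic anhydrase gene and the 5 genes nearest in pattern, clone-named and predicted genes aside; exceptions are stated. Alternatives were quantile normalization, median centring and cyclic loess (limma 3.58.1, R 4.3.3), other filters, 2-fold, and a control made of the mean of the remaining 3 arrays. Sequences are from RefSeq.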

Additional observations from a re-analysis of the deposited data

How the results depend on the processing

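No paired analysis was possible because each dose has 1 array. All 27 member differences kept their side of the 1.5-fold level under cyclic loess, and 26 of 27 did so under quantile normalization and under median centring. The exception was Klf1 at 0.02 Gy, at -0.61 and -0.60, which made 2 members lower there in place of 1. At 2-fold, 0 members were lower at 0.02 Gy. Against the mean of the remaining 3 arrays, the 0.02 Gy differences were -1.41 for Klf1, -0.89 for Gata1, -1.92 for Car1 and -0.62 for Ermap, so 4 members were lower. Tfrc was then at 0.34 at 0.1 Gy and 0.34 at 0.5 Gy, Ermap at 0.51 at 0.5 Gy, the median of the 9 genes at 0.51 at 0.5 Gy, and 3 members were higher at that dose. This control holds the other irradiated arrays by construction. Ermap at 0.02 Gy changed sign there, being 0.22 above 0 Gy as deposited. Tfrc at 0.02 Gy also changed sign, from 0.28 to -0.15, as did Car2 at 0.1 Gy, from -0.14 to 0.07. No member at 1.5-fold or more as deposited changed sign under these alternatives. Without the filter, 4.94% of genes at 0.1 Gy and 5.39% at 0.5 Gy were lower, against 7.48% and 8.25% with it. The deposited values give no signal over background, so differences of genes near or below 4.06 have an uncertain size.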

Other observations

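The Krüppel-like factor family to which Klf1 belongs was also uneven over dose. Of 17 measured genes 15 passed the filter, and 2, 3 and 4 of these lay 1.5-fold or more above 0 Gy in order of dose. At those doses 1, 2 and 1 lay that far below it. Among all kept genes 6.44%, 5.5% and 5.92% were above and 6.2%, 7.48% and 8.25% below. Klf12, a transcriptional repressor, had 6.21, 5.30, 4.99 and 3.90 on the arrays of 0, 0.02, 0.1 and 0.5 Gy, lower at each step of dose. Klf6 had 8.39, 8.88, 9.27 and 9.36, higher at each step. Klf4, a factor of monocytes and of quiescent cells, had 6.28, 7.29, 6.36 and 7.15, so it was high on the arrays at 0.02 and 0.5 Gy.

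Carbonic anhydrase genes outside chromosome 3 gave few differences. Car5b, a mitochondrial form, had 4.99, 5.93, 4.70 and 5.34 at 0, 0.02, 0.1 and 0.5 Gy. It was the sole one of the 16 at 1.5-fold or more higher at 0.02 Gy, against 6.44% of all kept genes. A count of 1 in 16 lies near that share. Car9, a hypoxia-induced membrane form, had 4.87, 5.12, 5.57 and 5.12. Among the 6 GATA factor genes, Gata1 alone was 1.5-fold or more from 0 Gy at any dose. It was so at 0.5 Gy, where 5.92% of all kept genes were above and 8.25% below. A count of 1 in so short a list says little beside those shares. Gata3, a lymphoid factor, had 6.46, 6.90, 6.16 and 6.97. Gfi1, the paralogue of Gfi1b that acts in granulocytes and lymphocytes, had 5.17 on 3 arrays and 5.06 at 0.1 Gy.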
